A study of Danio rerio with 40 samples.

Results

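Autophagy machinery genes encode the proteins that build the autophagosome, a membrane sac that encloses cell material and fuses with the lysosome. The 40 listed genes were chosen for their named role in this pathway, from kinases that start the sac to the proteins that fuse it with the lysosome. All 40 were matched to a gene of the table, out of 32057 genes in all. Symbols matched for 36 of them. The other 4 matched without the letter that tells zebrafish paralogs apart: atg4da, ulk1b and both ambra1 genes, given here by their Ensembl IDs ENSDARG00000008322 and ENSDARG00000039878.

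Autophagy begins when a ULK kinase complex is released from inhibition by mTORC1, after which a lipid kinase complex around Beclin 1 marks the growing membrane. Lipid transfer proteins enlarge that membrane, and a chain of ubiquitin-like enzymes couples proteins of the Atg8 family to it. Cargo receptors such as p62, the product of sqstm1, bind both ubiquitinated cargo and Atg8 proteins, and are themselves broken down with the cargo. The lysosome is the end point of the pathway, and in lysosomal storage diseases autophagosomes and undegraded cargo are known to build up in neurons. Transcript counts measure neither p62 protein nor the rate of autophagy.

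The counts came from whole brains of 40 zebrafish aged 6 months, 10 in each of 4 groups. Homozygous fish carried the frameshift allele A603fs of naglu on both copies of the gene and heterozygous fish on 1 copy. No fish without the allele is among the groups, so the heterozygous fish are the only comparison for genotype. The naglu enzyme breaks down heparan sulfate in lysosomes, and its loss causes mucopolysaccharidosis type IIIB in people. Of each genotype, 10 fish had received 10 µg ferric citrate in 0.85% saline and 10 fish 0.85% saline alone, into the abdominal cavity, and brains were taken 7 days later. The groups are thus homozygous iron, homozygous saline, heterozygous iron and heterozygous saline. Each library is 1 fish.

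Libraries held between 11800000 and 38500000 counts (median 26900000), of which the members took 0.166% to 0.215%. Females made up 5 of 10 homozygous iron, 7 homozygous saline, 5 heterozygous iron and 2 heterozygous saline fish, and the model held terms for sex and for home tank. Counts per gene do not separate mutant from normal transcript. The level of naglu was not called between genotypes over both treatments (log2 fold change 0.13, SE 0.128, edgeR adjusted p = 0.604), so it did not check the labels. Its lowest, median and highest values were 2.88, 3.53 and 6.01 CPM (counts scaled to the library total) in homozygous iron, 2.73, 4.48 and 6.09 in homozygous saline, 2.85, 3.62 and 6.11 in heterozygous iron and 2.58, 3.42 and 5.05 in heterozygous saline fish. A genotype score over 50 other genes, set to 0 for heterozygous and 1 for homozygous fish, placed each library by the other 39. The 20 homozygous libraries scored 0.61 to 1.31. The libraries labelled heterozygous iron 5 and heterozygous saline 5 scored 1.18 and 1.08, among the homozygous fish, and the other 18 heterozygous libraries -0.57 to 0.29. Members called with genotype are therefore also given without these 2 libraries, and other genotype values rest on all libraries unless stated. The score came from the genotype difference in these same data, so fits without these 2 libraries are no independent support. Those fits called 8.31% of all genes over both treatments and 2.98% after saline, against 4.31% and 1.25% with all libraries. Neuron markers were high in every library, with summed levels of 8680 to 13600 CPM over 13 genes, as the label whole brain has it.

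Of the 40 members, 39 passed the filter on low counts and were tested among 19668 genes. The exception was map1lc3c, an Atg8 family gene, which had at most 0.157 CPM in any library. Because transcript lengths were not used, levels are compared between fish and not between genes. In whole brains, fewer cells of a type and less RNA per cell cannot be told apart.

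In homozygous fish, over both treatments, sqstm1 rose, while atg9b, for a lipid scramblase that supplies membrane to the growing sac, and ulk1b, for a kinase that starts the sac, fell. The rise of sqstm1 was 1.21-fold, and the falls took atg9b to 0.856 and ulk1b to 0.886 of the heterozygous level. These 3 of 39 tested members (7.69%, 1 rising and 2 falling) were the ones called by edgeR at an adjusted p under 0.05, where 4.31% of all genes tested were called, 2.03% rising and 2.28% falling. Toward lower values lay 30 of the 39, or 76.9%, against 50.6% of all genes. Members vary together across libraries, so their signs are not independent of each other. The median log2 fold change was -0.06 over the members and 0.00 over all genes. At an unadjusted p under 0.05 there were 13 members, 2 higher and 11 lower, and 19.7% of all genes.

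The transcript of sqstm1 had a lowest, median and highest level of 20.4, 22.6 and 25.5 CPM in homozygous iron fish and 19.6, 23.6 and 26.3 in homozygous saline fish. The same values were 15.2, 18.6 and 21.9 CPM in heterozygous iron fish and 15.2, 18.6 and 22.2 in heterozygous saline fish. Every one of the 20 homozygous fish lay above the heterozygous median, and 13 lay above every heterozygous fish, so the genotypes overlapped in the others. The log2 fold change was 0.27 (SE 0.056, 95% interval 0.157 to 0.383, edgeR adjusted p = 0.00284). It was 0.27 after iron (SE 0.079, edgeR adjusted p = 0.174) and 0.27 after saline (SE 0.081, adjusted p = 0.0893), and passed in neither on its own by edgeR with all libraries. After saline it passed by DESeq2 (0.27, adjusted p = 0.0471) and without both doubted libraries described above (0.30, edgeR adjusted p = 0.0359). Those fits called 2.51% and 2.98% of all genes. The libraries heterozygous saline 5 and heterozygous iron 5, at 21.7 and 21.3 CPM, were the 3rd and 4th highest of the 20 heterozygous fish. Without both, the log2 fold change was 0.31 (edgeR adjusted p = 0.000713), where 8.31% of all genes were called, against 4.31% with all libraries.

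**Figure D1:**
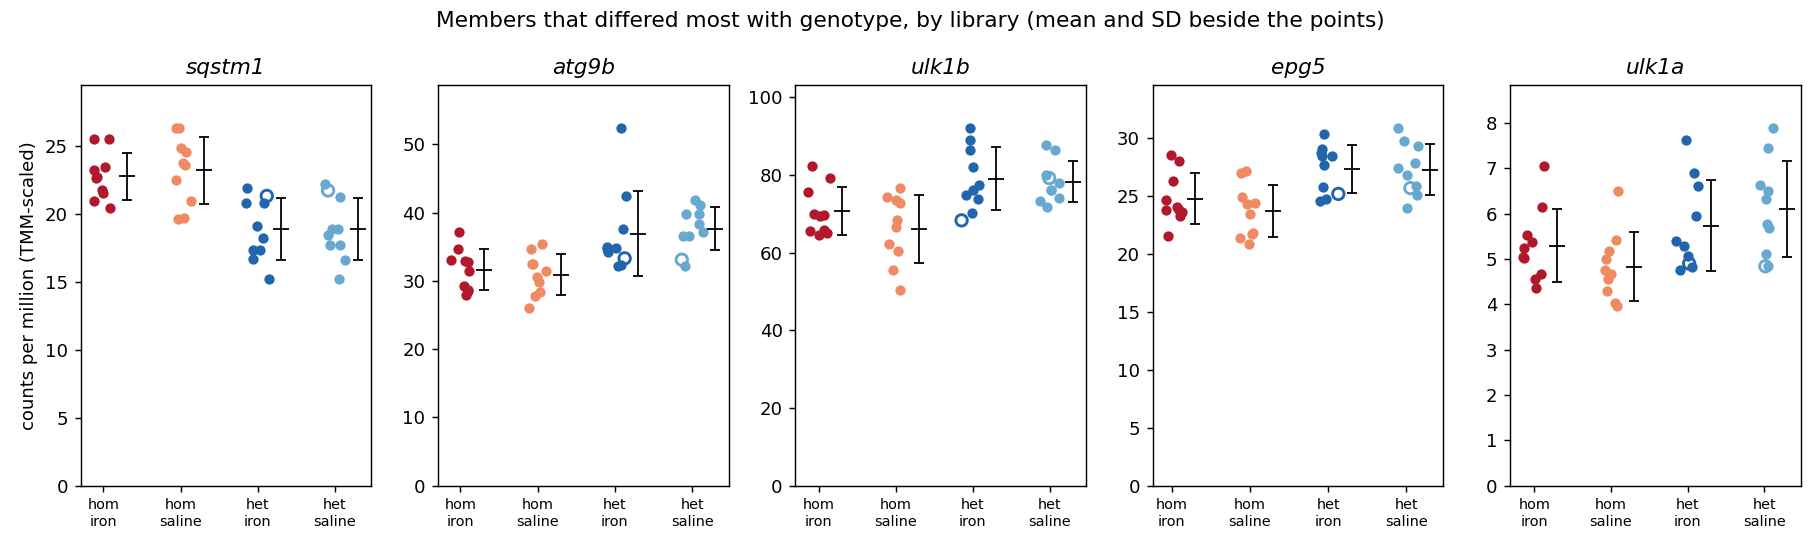
CPM of 5 members in each library, by group, with homozygous (hom) left of heterozygous (het) and iron left of saline within each genotype. Points are fish, open circles the libraries heterozygous iron 5 and heterozygous saline 5, and black marks the mean and SD (n = 10). For sqstm1 all 20 homozygous fish lie above the heterozygous median of 18.6 CPM, and epg5 and ulk1a did not pass the test.

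The level of atg9b was lowest, median and highest at 28, 32.1 and 37.2 CPM in homozygous iron fish and 26.1, 31.1 and 35.4 in homozygous saline fish. In heterozygous fish it was 32.2, 34.8 and 52.4 CPM after iron and 32.2, 37.8 and 41.8 after saline. Below every heterozygous fish lay 11 of 20 homozygous fish, and 19 lay below the heterozygous median. The log2 fold change was -0.22 (SE 0.057, 95% interval -0.34 to -0.108, edgeR adjusted p = 0.0176). It was -0.25 without both doubted libraries (edgeR adjusted p = 0.0076), where 8.31% of all genes were called. After saline it was called without both, at -0.29 (edgeR adjusted p = 0.0461), where 2.98% of all genes were. With 1 surrogate variable in the model it was -0.20 (edgeR adjusted p = 0.0594).

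The gene atg9b lies on the same chromosome as naglu, as does rb1cc1, among 38 members with a chromosome in RefSeq's table for the assembly GRCz12tu. Between naglu and atg9b lie 29 protein-coding genes in that table. For a gene so placed, a sequence difference linked to the allele and an effect of the allele itself cannot be told apart. Of 370 tested genes on that chromosome 21 were called (5.68%), against 577 of 13344 on other chromosomes (4.32%). Of the 26 tested genes from naglu to atg9b, with these end genes included, 2 were called, where 4.31% of all genes were. Of these, atg9b was lower, and the other, a gene that lies between naglu and atg9b, was higher. Genes of that stretch that were not tested or not matched by symbol are not covered. For rb1cc1, the scaffold of the ULK complex also called FIP200, the log2 fold change was -0.11 (SE 0.047, edgeR adjusted p = 0.205).

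The level of ulk1b was lowest, median and highest at 64.5, 69.5 and 82.2 CPM in homozygous iron fish and 50.5, 67.4 and 76.7 in homozygous saline fish. It was 68.3, 76.7 and 92.1 CPM in heterozygous iron fish and 71.7, 77.0 and 87.6 in heterozygous saline fish. Below every heterozygous fish lay 9 of 20 homozygous fish, and 13 did once both doubted libraries were left out, since heterozygous iron 5 was the lowest of its genotype. The log2 fold change was -0.17 (SE 0.048, 95% interval -0.272 to -0.076, edgeR adjusted p = 0.0302). It was -0.19 without both libraries (edgeR adjusted p = 0.0146), where 8.31% of all genes were called. With 1 surrogate variable in the model it was -0.13 (edgeR adjusted p = 0.136). Reads that ulk1b shares with its paralog ulk1a could be split between them, so both values are uncertain to that degree.

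Fish numbers, the sample titles whose meaning is not given, mark a difference in 21.4% of all genes tested, and sexes were uneven, so the 3 calls were also read within such ranges. Among fish numbered above 40 the medians of sqstm1 were 22.9 CPM in homozygous and 19 in heterozygous fish, and among those numbered up to 40 they were 23.0 and 17.3 CPM. The log2 fold changes were 0.20 above 40 and 0.27 up to 40 (edgeR adjusted p = 0.593 and 0.308). For atg9b they were -0.19 and -0.26, and for ulk1b -0.01 and -0.19. No member was called within either range, where 1 gene of all tested was called in each, and the difference between the ranges was not tested. Among females alone they were 0.31 for sqstm1, -0.10 for atg9b and -0.24 for ulk1b, with 0 genes called of all tested. Among males alone sqstm1 was called, at 0.35 (edgeR adjusted p = 0.0414, where 0.605% of all genes were called), while atg9b was -0.25 and ulk1b -0.14.

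By role, the start of autophagy had 9 members: the ULK genes and their partners, tbk1 and both ambra1 genes. Among these 9 members ulk1b fell. Their median log2 fold change was -0.10, from ulk1a at -0.24 to tbk1, a kinase that phosphorylates cargo receptors, at 0.10 (edgeR adjusted p = 0.0769 and 0.275). In ulk1a, the paralog of ulk1b, levels had a median of 5.14 CPM in homozygous iron, 4.71 in homozygous saline, 5.34 in heterozygous iron and 6.05 in heterozygous saline fish. Its log2 fold change after saline, -0.39 (SE 0.115), had the smallest p of the members and did not pass (edgeR adjusted p = 0.0834). It passed without both doubted libraries, at -0.44 (edgeR adjusted p = 0.0275), where 2.98% of all genes were called. The Beclin 1 binding scaffold ambra1 (ENSDARG00000008322) was at -0.13 (edgeR adjusted p = 0.0987) and the kinase partner atg13 at -0.10 (adjusted p = 0.135). With a term for fish number above 40 in the model ambra1 (ENSDARG00000008322) was called as well, at -0.12 (edgeR adjusted p = 0.0488), which made 4 members, where 5.67% of all genes were called.

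None of the 6 members of the lipid kinase complex was called. They ran from rubcn, an inhibitor of the complex, at -0.14 to becn1, which encodes Beclin 1, at 0.01. The interval of becn1, -0.053 to 0.075, was among the narrowest. Of the 7 members for membrane supply and lipid transfer atg9b fell, and the others ran from the lipid transfer protein gene atg2b at -0.17 to wipi2, a reader of the lipid mark, at -0.02. All 7 values of that role were below 0 over both treatments, while after iron alone they ran from -0.19 (atg9b) to 0.05 (wipi2).

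The conjugation genes, 9 members, had 0 called by edgeR and a median of -0.01. Lowest was atg4c, a protease that trims Atg8 proteins, at -0.15 (edgeR adjusted p = 0.365), and highest atg3, the enzyme that attaches them to lipid, at 0.09 (adjusted p = 0.0998). With 1 surrogate variable in the model atg4c was called, at -0.32 (edgeR adjusted p = 0.00205), and sqstm1 was the only other member called in that fit, where 2.95% of all genes were. Without both doubted libraries atg3 was called, at 0.12 (edgeR adjusted p = 0.0148), where 8.31% of all genes were. The levels of atg3 had medians of 56.8 CPM in homozygous iron, 56.0 in homozygous saline, 53.0 in heterozygous iron and 53.4 in heterozygous saline fish. The 4 tested Atg8 family genes ran from map1lc3a at -0.09 to gabarapa at -0.02, and 0 were called. The other cargo receptor, optn, was at 0.06 (adjusted p = 0.561).

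Of the genes for fusion with the lysosome, the tether gene epg5 was at -0.14 (SE 0.044, edgeR adjusted p = 0.0635) and the SNARE gene stx17 at -0.08 (SE 0.101). Levels of epg5 were lowest, median and highest at 20.9, 24.0 and 28.6 CPM in homozygous fish and 24.0, 27.5 and 30.9 in heterozygous fish. Below every heterozygous fish lay 10 of the 20 homozygous fish. Without both doubted libraries epg5 was called, at -0.15 (edgeR adjusted p = 0.043), and the members called were then 6, with ulk1a and atg3 also among them, where 8.31% of all genes were called in the same fit.

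**Figure D2:**
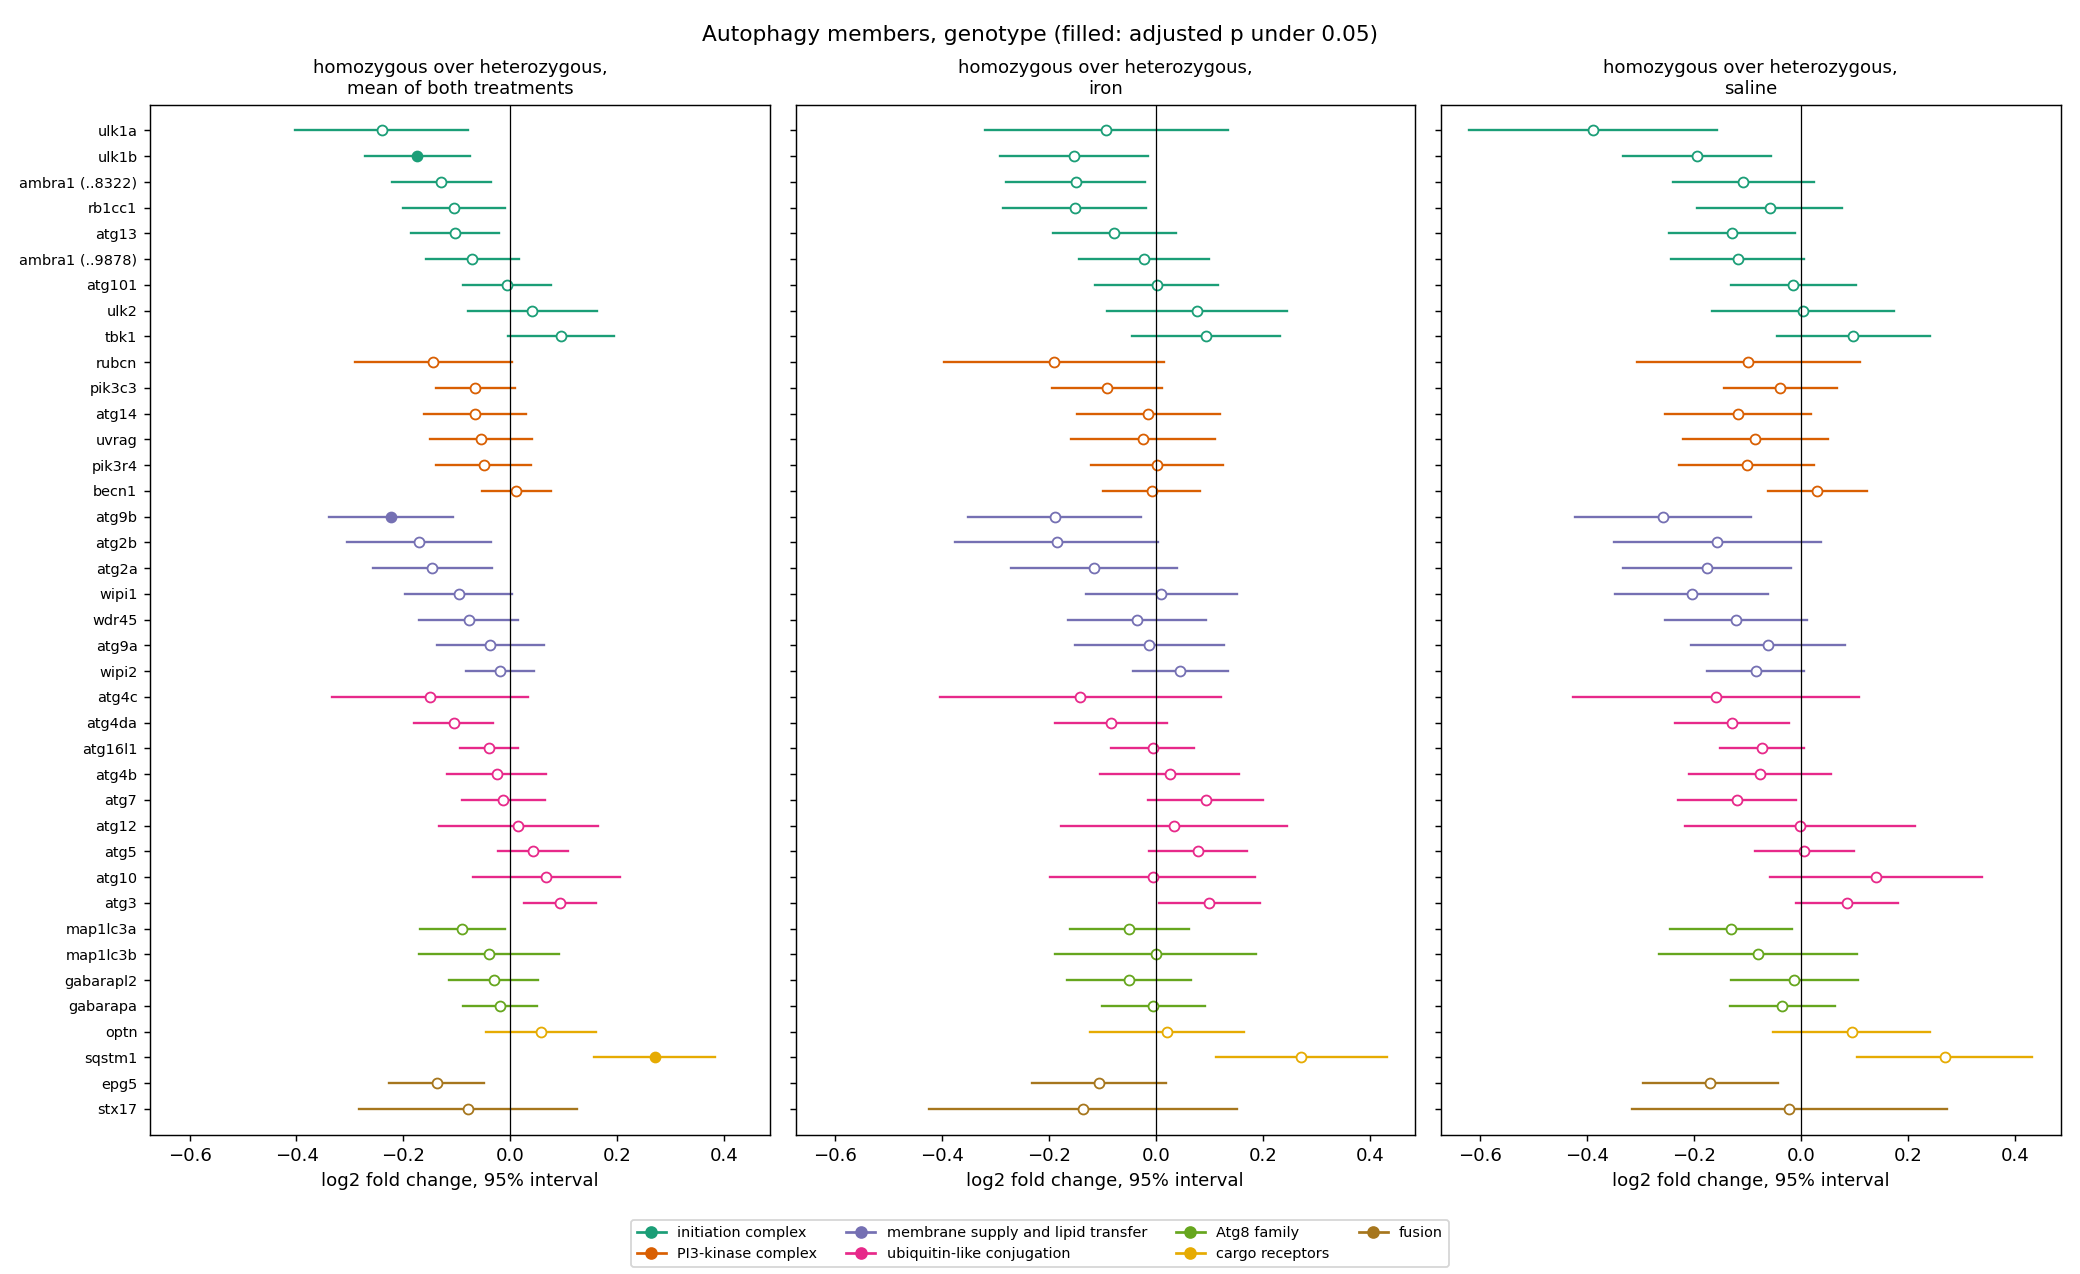
Homozygous over heterozygous fish, as a log2 fold change with its 95% interval, for the 39 tested members, grouped by role (colour), for the mean of both treatments, after iron and after saline. Filled points passed an edgeR adjusted p of 0.05: sqstm1 (0.27), atg9b (-0.22) and ulk1b (-0.17) in the mean of both treatments, and none within a treatment.

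After saline alone, 0 of 39 members were called by edgeR, 0 by limma voom and 2 by DESeq2 (ulk1a and sqstm1). Of all genes edgeR called 1.25%, limma voom 1.08% and DESeq2 2.51%. At an unadjusted p under 0.05 there were 11 members, 1 higher and 10 lower, and 15.3% of all genes, and the median was -0.09 over members and 0.00 over all genes. After iron alone, 0 were called by edgeR, DESeq2 and limma voom, where edgeR called 0.137% of all genes. At an unadjusted p under 0.05 there were 6 members, of which 2 were higher and 4 lower, and 8.32% of all genes, with a median of -0.02 over the members. The smallest p after iron belonged to sqstm1, atg9b (-0.19, adjusted p = 0.492) and ambra1 (ENSDARG00000008322, -0.15, adjusted p = 0.5).

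Some marker genes of cell types were called with genotype over both treatments, where 4.31% of all genes were. All 8 oligodendrocyte and myelin markers fell, with a median log2 fold change of -0.56, and their summed level was lowest, median and highest at 8940, 14100 and 21500 CPM in homozygous fish and 11600, 21000 and 33200 in heterozygous fish. Of 9 microglia and macrophage markers only SLC7A7 was called, and it rose, while 7 of the 9 were higher and 2 lower. Their median was 0.45, with summed levels of 364, 578 and 1020 CPM in homozygous fish against 208, 473 and 802 in heterozygous fish. Pigment cell markers pmelb and pmela rose, with summed levels of 7.53 to 31.9 CPM in homozygous and 4.85 to 19.5 in heterozygous fish. Neuron markers had 0 of 13 called by edgeR, with 12 lower and a median of -0.04, astroglia markers 0 of 7 tested with a median of 0.25. Photoreceptor and lens markers had 0 of 4 tested called and a median of 1.21. Their summed levels over 8 genes overlapped, at 2.9 to 95.5 CPM in homozygous and 3.27 to 166 in heterozygous fish. The part of these cell markers in the values of sqstm1, atg9b and ulk1b was not tested.

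Among other genes of the pathway 1 of 18 and 1 of 25 in the first lists were called with genotype, beside 4.31% of all genes. Among the 18 tested further core genes EI24, for a membrane protein of the endoplasmic reticulum needed in autophagy, fell by 0.16 on the log2 scale (SE 0.033, edgeR adjusted p = 0.00254). Among the 25 other cargo receptors and mitophagy genes CALCOCO1 (ENSDARG00000036695) fell by 0.19 (SE 0.045, edgeR adjusted p = 0.0128), and its paralog CALCOCO1 (ENSDARG00000016391) was at 0.55 (SE 0.187, adjusted p = 0.0839). Of 30 regulators in the mTORC1 and AMPK pathways and 20 fusion and tethering genes, 0 were called by edgeR. Their medians were 0.00 and -0.02.

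Ferric citrate left no member past the threshold. In iron fish over saline fish, taken over both genotypes, 0 of 39 members were called by edgeR, 0 by DESeq2 and 0 by limma voom, and 0 had an unadjusted p under 0.05, as 1.91% of all genes did. By edgeR 0% of all 19668 genes were called. The largest difference was 0.10 on the log2 scale, in stx17 (SE 0.099), and optn, also at 0.10 (SE 0.05), had the smallest p. All 39 intervals lay within 0.5 on either side of 0, the lowest bound being -0.20 in map1lc3b and the highest 0.30 in stx17. The median was 0.02 over the members, with 27 higher and 12 lower (30.8%, against 48.3% of all genes). On simulated counts with 50 changed genes at each size, drawn at random from all tested, this comparison recovered 34% of 1.2-fold and 86% of 1.5-fold changes.

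Within homozygous fish 0 members and 0% of all genes were called with iron by edgeR, DESeq2 or limma voom. There 33 members were higher and 6 lower after iron. That is 15.4% lower, against 49.6% of all genes, with a median of 0.04 over the members and 0.00 over all genes. Members vary together across libraries, so such signs are not independent of each other. The smallest p belonged to wipi1, a reader of the lipid mark, at 0.16 (SE 0.072), atg4b, an Atg8 protease, at 0.14 (SE 0.067) and atg7, the enzyme that starts both conjugation chains, at 0.11 (SE 0.055), each with an edgeR adjusted p of 1. Within heterozygous fish 22 members were higher and 17 lower (43.6%, against 48.9% of all genes). Again 0 members and 0% of all genes were called by the same 3 tools. In heterozygous fish atg7 was at -0.11 (SE 0.051), optn at 0.14 (SE 0.068) and rb1cc1 at 0.12 (SE 0.063), each with an edgeR adjusted p of 1. At an unadjusted p under 0.05 there were 2 members in homozygous fish, where 1.46% of all genes were, and 1 in heterozygous fish, where 3.37% were. The bounds of the intervals ran from -0.31 (atg10) to 0.45 (ulk1a) in homozygous fish and from -0.30 (ulk1a) to 0.43 (stx17) in heterozygous fish.

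**Figure D3:**
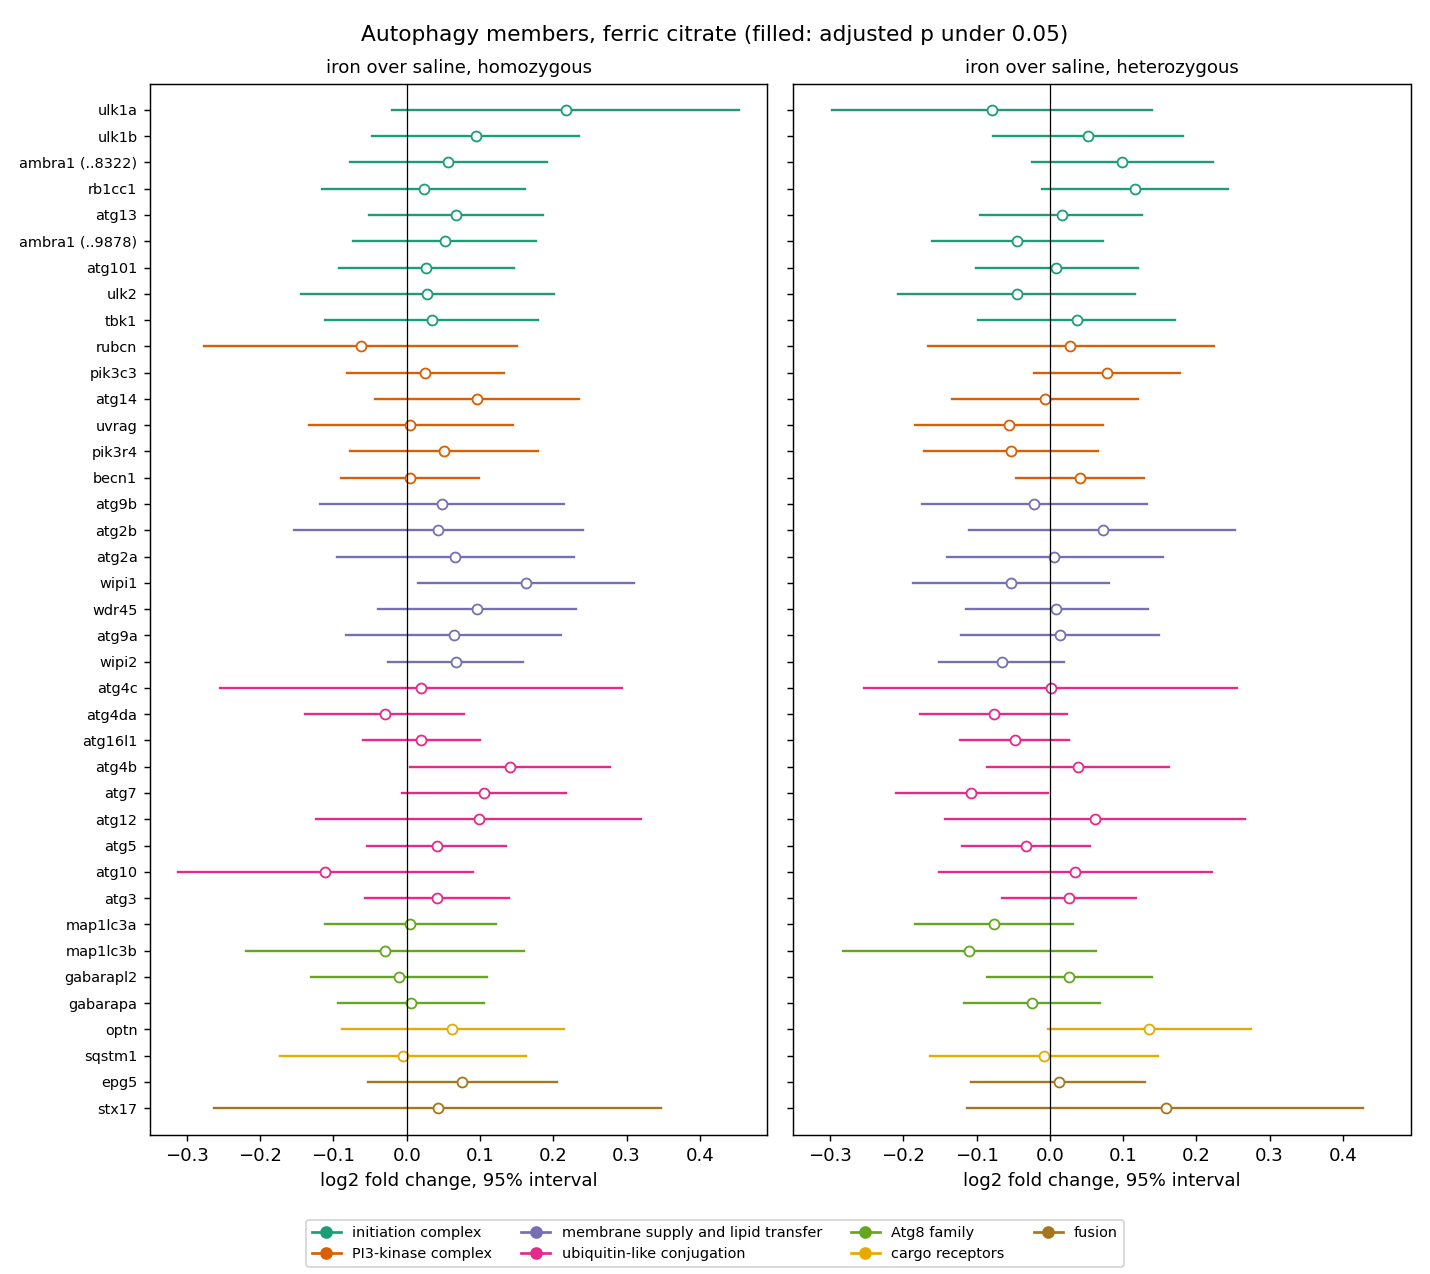
Log2 fold change of iron over saline fish with its 95% interval for the 39 tested members, grouped by role (colour), in homozygous (left) and heterozygous (right) fish. No point is filled, since none passed an edgeR adjusted p of 0.05, and atg7 lies at 0.11 in homozygous and -0.11 in heterozygous fish.

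The level of atg7 was lowest, median and highest at 26.0, 27.4 and 30.6 CPM in homozygous iron fish and 23.9, 25.6 and 27.5 in homozygous saline fish. It was 21.7, 26.2 and 29.3 CPM in heterozygous iron fish and 24.7, 28 and 32.0 in heterozygous saline fish. The iron response of homozygous over that of heterozygous fish was 0.21 for atg7 (SE 0.076), 0.22 for wipi1 (SE 0.099) and 0.13 for wipi2 (SE 0.063). These 3 had an unadjusted p under 0.05, as 2.53% of all genes did, and an edgeR adjusted p of 1, and 0 members and 0% of all genes were called by edgeR, with 0 members also by DESeq2 and limma voom. The groups overlapped for each.

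The transcript of ncoa4, the receptor that carries ferritin into autophagosomes and so frees stored iron, is no member but bears on iron and autophagy. In iron over saline fish it was at 0.04 on the log2 scale (SE 0.039, 95% interval -0.042 to 0.116, edgeR adjusted p = 1). For wdr45, a member whose human gene is mutated in a neurodegeneration with brain iron accumulation, iron fish had 28.7, 31.7 and 37.9 CPM as the lowest, median and highest level and saline fish 26.5, 31.4 and 37.7. No further core, regulator, cargo receptor or fusion gene of the 4 pathway lists was called with iron by edgeR over both genotypes.

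Females over males gave 0 called members by edgeR and by limma voom and 1 by DESeq2. Of all genes edgeR called 2.44%, limma voom 3.07% and DESeq2 4.58%. By edgeR 5 members had an unadjusted p under 0.05, 1 higher and 4 lower, as did 18% of all genes. The one that DESeq2 called was rb1cc1, at -0.15 by edgeR (SE 0.047, edgeR adjusted p = 0.071), and 17 of 19 females lay below the male median. The ambra1 gene ENSDARG00000008322 was at -0.12 and ulk1b at -0.12 (edgeR adjusted p = 0.152 and 0.163).

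In the 20 fish numbered above 40 over the 20 numbered up to 40, 8 members rose and 2 fell. That is 25.6% of the 39 tested, where 21.4% of all genes were called, 10.8% rising and 10.6% falling. At an unadjusted p under 0.05 there were 14 members, 11 higher and 3 lower, and 34.3% of all genes. The share of members is thus near that of all genes. Above 40 lay 6 homozygous iron, 4 homozygous saline, 4 heterozygous iron and 6 heterozygous saline fish, and group, sex and home tank were in the model. The labels do not say what the number stands for, so what it marks in the handling of the fish or the libraries cannot be told apart.

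Of the members for initiation atg13, atg101, which encode partners of the ULK kinases, and ambra1 (ENSDARG00000008322) rose. Their log2 fold changes were 0.14 (SE 0.031), 0.10 (SE 0.035) and 0.14 (SE 0.037), with edgeR adjusted p of 0.00159, 0.0331 and 0.00722. The level of atg13 was lowest, median and highest at 79.4, 89.1 and 99.1 CPM above 40 and 70.9, 82.7 and 88.7 up to 40. Above every fish up to 40 lay 11 of the 20 fish above 40.

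In the lipid kinase complex pik3r4, the regulatory subunit, and atg14, which directs the complex to autophagy, rose, and the inhibitor rubcn fell. The level of pik3r4 was 47.7, 55.3 and 60.8 CPM above 40 and 40.7, 48.6 and 59.1 up to 40, with 19 of 20 fish above 40 over the other median. Its log2 fold change was 0.16 (SE 0.032, edgeR adjusted p = 0.000741), and that of atg14 0.14 (SE 0.039, adjusted p = 0.011). The fall of rubcn was to a median of 9.54 CPM above 40, against 11.3 up to 40, a log2 fold change of -0.19 (SE 0.062, edgeR adjusted p = 0.0301). Of the 20 fish above 40, 19 lay below the median of the others for rubcn.

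In membrane supply and lipid transfer 3 of 7 members rose, and the others, with the reader wipi2 and the scramblase gene atg9b, were not called. The lipid mark readers wdr45 and wipi1 rose by 0.16 (SE 0.034, edgeR adjusted p = 0.00106) and 0.17 (SE 0.038, adjusted p = 0.00226). The scramblase gene atg9a rose by 0.13 (SE 0.042, edgeR adjusted p = 0.0263). For wdr45 the lowest, median and highest levels were 29.5, 34.3 and 37.9 CPM above 40 and 26.5, 30.6 and 32.9 up to 40, and 12 of the 20 fish above 40 lay over every other fish. In conjugation atg4c fell, with 14.3, 19.8 and 23.6 CPM above 40 and 16.1, 23.4 and 33.9 up to 40. Its log2 fold change was -0.32 (SE 0.068, edgeR adjusted p = 0.0011). No Atg8 family gene, cargo receptor or fusion gene among the members was called by edgeR with sex and home tank in the model. The Atg8 gene gabarapa was called by DESeq2 (0.08, adjusted p = 0.0359) and by edgeR without those terms (0.08, adjusted p = 0.0425).

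**Figure D4:**
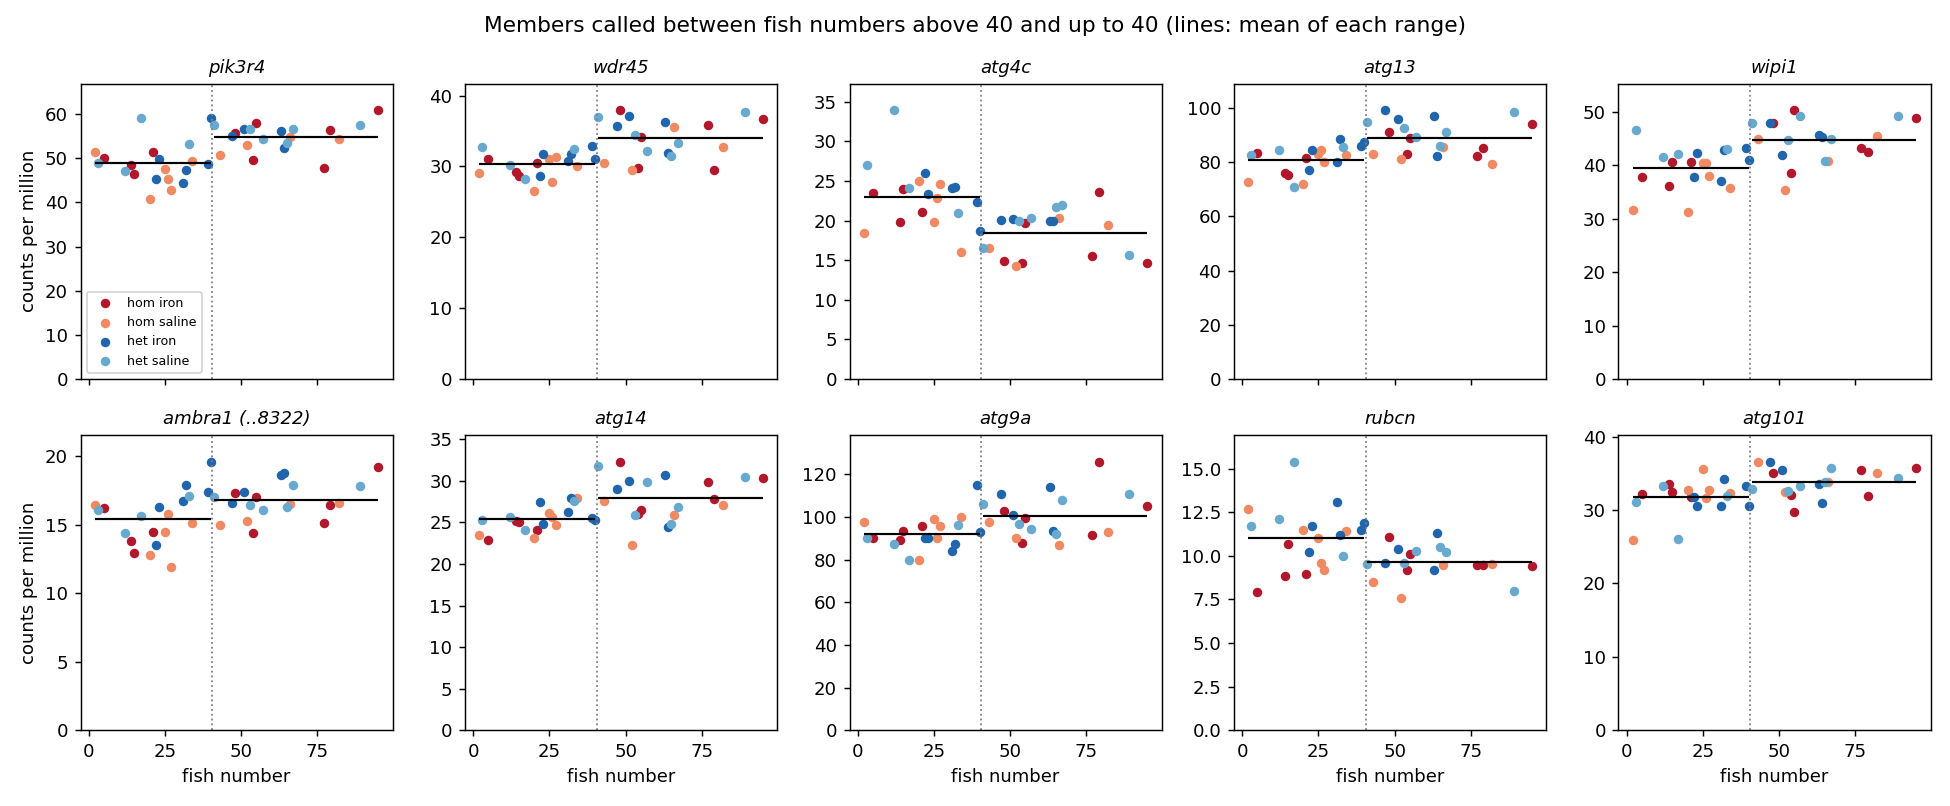
CPM against fish number for the 10 members called between fish numbers above 40 and up to 40 (dotted line), with points coloured by group and black lines at the mean of each range. The step is upward in 8 members and downward in atg4c and rubcn, and homozygous and heterozygous fish lie on both sides of it.

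Within the lower range, fish 23 to 40 over fish 2 to 22, 0 members and 0% of all genes were called by edgeR, with 2 members at an unadjusted p under 0.05, atg13 at 0.13 and atg4c at -0.22, and 8.15% of all genes. Within the upper range, fish 63 to 95 over fish 41 to 57, 0 members were called by edgeR, where 0.0763% of all genes were, and 0 had an unadjusted p under 0.05, as 4.36% of all genes did. DESeq2 and limma voom called 0 members in either. Home tank nearly followed the fish number within each range and was not in this model, so tank and number cannot be told apart here. In the 4 ranges in order the median level of wdr45 was 29.1, 31.2, 34.3 and 34.5 CPM, that of pik3r4 48.7, 48.1, 55.3 and 55.5 and that of atg4c 24.1, 22.6, 18.1 and 19.9.

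The count rested on all fish together. In homozygous fish alone 0 members were called by edgeR, where 2.74% of all genes were, with atg9a at 0.00 and the same sign as before in the other 9. In heterozygous fish alone 6 were called, pik3r4, wdr45, atg4c, atg13, ambra1 (ENSDARG00000008322) and atg9a, where 7.11% of all genes were. The difference between the genotypes was not tested. Females alone gave 1, atg4c, where 3.95% of all genes were called, and males alone 0, where 1.6% were. Some cell markers were called with fish number as well, beside 21.4% of all genes. Microglia and myelin markers did not clearly exceed that share. Of 13 neuron markers 6 rose (median 0.15, summed level 9770 to 13600 CPM above 40 and 8680 to 11100 up to 40). Of 7 tested astroglia markers 4 fell, of 9 microglia markers 2 and of 8 myelin markers 1, with list medians of -0.24, -0.41 and -0.15, and naglu itself was at -0.59 (SE 0.07, edgeR adjusted p = 2.66e-07). Their part in the members' values was not tested.

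Among the pathway lists, fish above 40 had more BNIP3 and TOLLIP, both receptors on membranes, nbr1a and nbr1b, relatives of p62, and ncoa4, which rose by 0.11 to 0.17 on the log2 scale. These are 5 of 25 genes with 0 falling, and the counts of this and the next lists stand beside the 21.4% of all genes called. Of 30 mTORC1 and AMPK regulators STK11 and RICTOR (ENSDARG00000100867) rose, and sesn3, FNIP2, PRKAB1 (ENSDARG00000046143), PRKAG1 and DEPTOR fell. Of 20 fusion and tethering genes 3 rose and 4 fell, with rilp at -0.54 (SE 0.067) and the SNARE gene VAMP8 at -0.50 (SE 0.09) farthest from 0. Of 18 tested further core genes ULK3 rose, and tmem41aa and smcr8b fell.

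Across the 40 libraries, with group means removed, members differed in how much they varied. The within-group SD of log2 CPM was lowest in atg16l1, whose protein forms the conjugation complex with atg5 and atg12, at 0.07, and in wipi2 and becn1 at 0.08. It was highest in stx17 at 0.29, atg4c at 0.27 and ulk1a at 0.23. Levels were 1.13 to 3.01 CPM in stx17, 3.96 to 7.89 in ulk1a and 14.3 to 33.9 in atg4c. They were 69.3 to 82.4 CPM in atg16l1, 63.1 to 85.9 in wipi2 and 19.2 to 24 in becn1. The part of counting noise at low levels in these SDs was not tested. The first principal component of the 39 members, each scaled to the same SD, held 23.2% of the scaled variance, with 32 loadings above 0 and 7 below. No other set of genes was put through this step, so that share is not shown to be particular to the members. For the members the component was also set against fish number. Its score averaged 1.97 ± 2.46 in fish above 40 and -1.97 ± 2.2 in fish up to 40 (SD, n = 20 each).

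Of 741 pairs of members 105 had an adjusted p under 0.05 for Pearson's r in a two-sided permutation test with 100000 permutations, 84 positive and 21 negative. Pairs of other genes were not counted, so whether members vary together more than other genes do was not tested. With the means of the ranges above 40 and up to 40 removed as well, 75 pairs passed, 60 positive and 15 negative, and 59 pairs passed both ways with the same sign. The pairs described are the highest and the lowest with only group means removed and share the libraries and their scaling. For atg13 and wdr45 r was 0.794 and Spearman's rho 0.753 (n = 40, permutation p = 1e-05 each, the smallest these permutations can give, adjusted p = 0.000494 and 0.000463). In each pair the 2 libraries farthest from the median of its first-named member were left out, whatever the other member's values. For atg13 and wdr45 r was then 0.76, and with all libraries of a range it was 0.681 above 40 and 0.714 up to 40. For the kinase tbk1 and atg9a r was 0.771 and rho 0.725, with 0.669 without the 2 libraries, 0.853 above 40 and 0.765 up to 40. For ulk1b and epg5 r was 0.77 and rho 0.735, with 0.746, 0.729 and 0.824 in the same order. The lowest r was that of rubcn and the Atg8 gene gabarapa, -0.612 with a rho of -0.512 (adjusted permutation p = 0.000855 and 0.0128), and it was -0.474 without the 2 libraries, -0.504 above 40 and -0.523 up to 40.

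**Figure D5:**
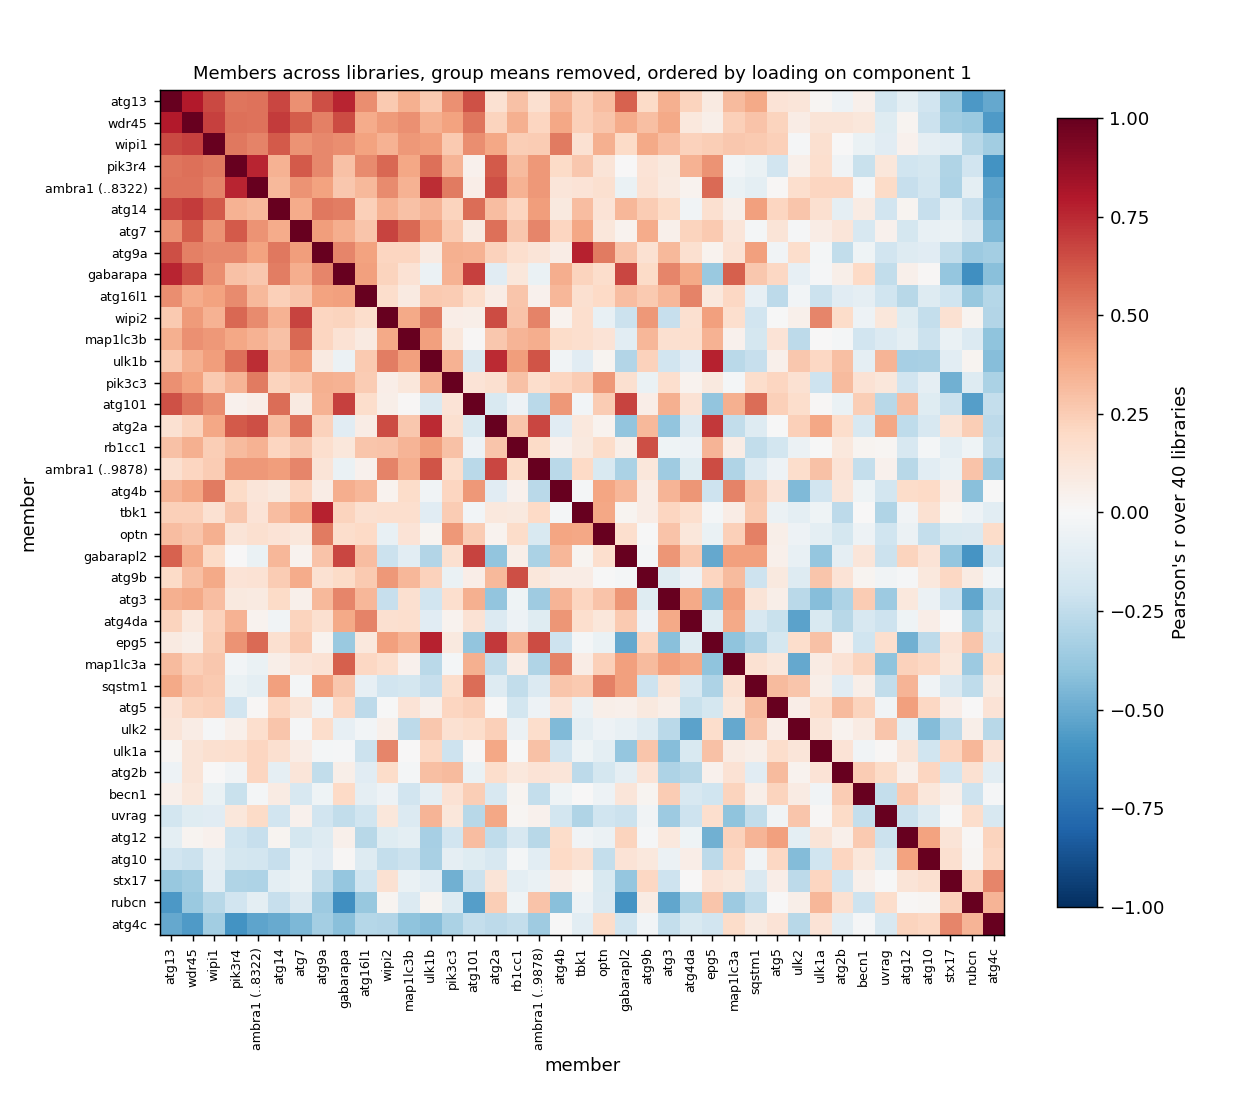
Pearson's r over 40 libraries between each pair of the 39 tested members after the mean of each group was removed, with members ordered by their loading on the first component (both axes, colour from -1 to 1). Members from atg13 and wdr45 down share positive values at the upper left, and rubcn and atg4c, at the lower end, are negative to them.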

How the data were processed

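RNA of whole brains from 40 zebrafish was sequenced, 1 library per fish, and the labelled genotype and treatment gave 4 groups of 10. The authors deposited raw counts per Ensembl gene, whole numbers with no normalization. The tools named are STAR, featureCounts, UMI-tools and fastp with the build GRCz11, per the submitters' processing notes. Versions, settings and strand handling are not given, so reads of overlapping or antisense genes and of near-identical paralogs cannot be told apart. Library totals were 11800000 to 38500000 counts, and all columns of the table were used. None of 780 pairs of libraries was identical. Symbols came from a gene table that covered 28988 of 32057 genes (90.4%). RefSeq's GRCz12tu table, of another build, gave names, neighbours and the chromosome of naglu only.

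The tests used edgeR 4.0.16 (R 4.3.3) on the 19668 genes that filterByExpr kept, with TMM scaling. A robust quasi-likelihood model of all 40 libraries had terms for group, sex and home tank (9 coefficients, 31 residual degrees of freedom). Fish number above 40 was added as a term for that comparison, and the ranges of fish number were fitted without home tank. In each of 11 comparisons Benjamini-Hochberg adjustment ran over every tested gene, and an adjusted p under 0.05 was called. CPM are counts scaled to the TMM-adjusted total, and log2 CPM use a prior count of 2.

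The genotype score used limma 3.58.1 on log2 CPM with genotype, treatment, sex and tank. Correlations were computed on log2 CPM after the mean of each group was removed, and the pairs named are the 3 with the highest r and the 1 with the lowest. The members, gene lists, naming rule and alternatives were chosen with earlier results of these data known. The rule named every called member, or the 3 with the smallest p where none was called, and each role's lowest and highest member. The members epg5, atg3, optn, rb1cc1, atg13, map1lc3a and wdr45, and the gene ncoa4, were also given values for their role or after their values were seen.

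On simulated data with 50 of the 19668 genes, drawn at random, changed at each size, the fit was checked. For homozygous against heterozygous fish over both treatments the step recovered 48% of the changes at 1.2-fold and 84% at 1.5-fold. Alternatives used other size factors, filters, DESeq2 1.42.0, limma voom, 1 surrogate variable from sva 3.50.0, a term for fish number, other covariates and fewer libraries.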

Additional observations from a re-analysis of the deposited data

Results flagged for a closer look

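In 156 groups of 10 libraries, 1 for each tested member in each group, the highest or lowest library stood apart from the rest in 11, where chance flags about 1 in 20 groups. Values are log2 CPM. For atg101, homozygous saline 1 was low at 4.7 (next 4.99) and heterozygous saline 3 low at 4.7 (next 4.96). In rb1cc1, heterozygous iron 2 was high at 6.83 (next 6.36) and heterozygous saline 10 high at 6.48 (next 6.28). In homozygous iron 9 both tbk1, at 7.31 (next 6.93), and atg9a, at 6.98 (next 6.72), were high. In heterozygous iron 1 both ambra1 (ENSDARG00000008322), at 3.77 (next 4.03), and atg2b, at 1.92 (next 2.26), were low. In heterozygous saline 3, atg2a was high at 5.54 (next 5.3) and gabarapl2 low at 6.33 (next 6.62). In homozygous saline 8, optn was low at 4.57 (next 4.81). None of the 3 members called with genotype was among them.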

How the results depend on the processing

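Other size factors, filters on low counts and limma voom left the 3 members called with genotype over both treatments called, and at 9 or 10 the members called with fish number. These fits called 2.34% to 4.92% of all genes with genotype and 12.8% to 23.4% with fish number. With genotype over both treatments, DESeq2 called 6 members, the model with no terms for sex and home tank 10, male libraries 1, female libraries 0, fish numbers above 40 and fish numbers up to 40 0 each. In the same order 6.4%, 12.7%, 0.605%, 0%, 0.00504% and 0.00513% of all genes were called. Without heterozygous saline 5 alone 5 were called, and over the fits without 1 or both doubted libraries or heterozygous saline 10 there were 3 to 6. The shares of all genes called were 5.74% without heterozygous saline 5 and 4.62% to 8.31% over those fits. After saline, where edgeR called 0, DESeq2 called 2, no terms for sex and tank 8 and 1 surrogate variable 1 (atg4c), and the fits without such libraries gave 0 to 3. The shares of all genes called were then 2.51%, 11.4%, 0.508% and 0.928% to 2.98%. Of females over males DESeq2 called 1 member, and 4.58% of all genes. With fish number, against 10, male libraries gave 0, female libraries 1, homozygous libraries 0 and heterozygous libraries 6. The shares of all genes called were 1.6%, 3.95%, 2.74% and 7.11%, against 21.4%. Over its alternatives sqstm1 ranged from 0.20 to 0.35 and was called in 14 of 17, atg9b from -0.26 to -0.10 and ulk1b from -0.24 to -0.01, each called in 12 of 17. Without heterozygous saline 10, atg9a (0.11) and atg101 (0.09) no longer passed with fish number (edgeR adjusted p = 0.0563 and 0.0791). Correlations that moved were atg13 with wdr45 (0.681 above 40), tbk1 with atg9a (0.669 without 2 libraries), and rubcn with gabarapa (-0.474 without 2 libraries, -0.504 above 40). Neither reversed value had been called: ambra1 (ENSDARG00000008322) with iron was -0.001 in females and atg4da in fish 63 to 95 over 41 to 57 was 0.014 in males. The causes were not tested. Smaller sets of fish also have fewer libraries. Female libraries alone, fish number ranges alone, single doubted libraries, single genotypes and the removal of fish number means from the correlations were chosen after seeing the data. No paired analysis was possible because each library is a different fish and replicate numbers follow the order of accession. Differences of about 1.2-fold were often below what 10 fish a group can show, since 16% of these were recovered after saline on simulated counts.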
